A study of Mus musculus with 10 samples.

Results

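Sncg and Sncb encode γ-synuclein and β-synuclein, members of a family of small soluble neuronal proteins. They were taken by name from the FPKM table of FACS-sorted sensory neurons, with their levels already known, and are 2 genes of 45952. Both were among the 12637 detected genes, those at 1 FPKM or more in at least 2 libraries of dorsal root ganglia (DRG) or of trigeminal ganglia (TG). The libraries were made from naïve, adult Avil-GFP mice (STOCK Tg(Avil-EGFP)QD84Gsat/Mmucd, bred on a CD1 background), in which the advillin promoter drives GFP in sensory neurons. The groups were male lumbar DRG (n = 3), female lumbar DRG (n = 3), male TG (n = 2) and female TG (n = 2). DRG supply the trunk and limbs and TG the face, and the design compared neurons of the same kind from these locations and from both sexes. A small, fixed number of GFP+ live events was sorted from each animal, so that each library stands for a small sample of a mixed neuronal population. The labels name satellite glial cells as the contaminant of the sort.

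Synucleins bind curved membranes through repeated amphipathic segments in their amino-terminal portion, and much of the brain's pool sits at presynaptic terminals beside synaptic vesicles. β-Synuclein is best known from brain synapses, whereas γ-synuclein, first described in peripheral nervous tissue under the name persyn, is well known in sensory ganglia, in retinal ganglion cells and outside the nervous system in fat cells. In bulk libraries such as these, fewer cells expressing a gene and less RNA per cell cannot be told apart.

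Both genes are on the minus strand of the mouse genome (GRCm38, GENCODE M21). Sncg occupies chr14:34370274-34374789 with 1 annotated transcript of 5 exons and 852 bases, of which 369 are coding. Sncb occupies chr13:54758860-54766595 with 4 annotated transcripts, 2 of them coding. Its longest, Sncb-201, has 6 exons and 1351 bases, of which 399 are coding. The first coding segment, which holds the start codon, is 121 bases long in both genes, at chr14:34374460-34374580 in exon 1 of Sncg and at chr13:54765563-54765683 in exon 2 of Sncb. These segments are shown because they carry the part that the family shares, and capitals mark the 24 bases that differ between the genes.
Sncg: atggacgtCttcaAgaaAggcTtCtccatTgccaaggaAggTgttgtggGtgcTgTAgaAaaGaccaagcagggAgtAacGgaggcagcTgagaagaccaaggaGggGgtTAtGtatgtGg
Sncb: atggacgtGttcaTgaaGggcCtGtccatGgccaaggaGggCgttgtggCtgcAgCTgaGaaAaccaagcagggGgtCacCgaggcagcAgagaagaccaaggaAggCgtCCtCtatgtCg
The coding exons that follow are 42, 128, 60 and 18 bases long in Sncg and 39, 119, 90 and 30 bases long in Sncb. Over the aligned coding sequences, 254 of 364 bases (69.8%) were identical. The longest identical run between any of their transcripts was 16 bases, against reads of 75 bases, so that a read without mismatches has only 1 of these genes as its source.

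No annotated gene overlaps either member. The nearest neighbour of Sncg is Mmrn2, an extracellular matrix protein of blood vessels, which starts 676 bases away on the opposite strand. It was listed at 0 to 2.65 FPKM over the 10 libraries. Fam25c, 14841 bases to the other side, was listed at 0 to 0.777 FPKM. Beside Sncb, Gprin1 lies 8986 bases away and was listed at 0.0223 to 0.706 FPKM, and Gm16249 lies 10919 bases away and was at 0 in all 10 libraries. None of these neighbours approached the level of the synuclein next to it.

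FPKM are scaled for transcript length and for the number of mapped reads and can be compared between genes. Their sum per library was 543862 to 870872 for DRG and 563021 to 646684 for TG. Read counts of single libraries were not used. The authors' mean normalised read count over all libraries was 92936 for Sncg and 1117 for Sncb, so that the counting error of a library with that many reads would be 0.328% and 2.99%, small against the spread between libraries given next. In 3 DRG libraries the median rank correlation with the other libraries was low, at 0.849 in male DRG replicate 3, 0.869 in female DRG replicate 1 and 0.895 in female DRG replicate 3, against 0.933 or more in the others. Avil, the gene whose promoter marks the sorted cells, stood at 172 FPKM in male DRG replicate 3 and at 555 to 1220.2 FPKM in the remaining 9 libraries. Of 12 listed sensory neuron markers 11 were in the table, and these 11 were all detected. Their median level per library ran over 172 to 373 FPKM (DRG) and 219.8 to 308 FPKM (TG).

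Sncg was the most abundant transcript of the sorted neurons by FPKM. By the authors' mean normalised read count, which is not scaled for transcript length, it ranked 4. Its mean over the 10 libraries was 14101 FPKM, the highest of 45952 genes. It stood above Calca (CGRP, the peptide of many nociceptors, 6302 FPKM) by 2.24-fold and above Tuba1a (an α-tubulin of neurons, 5188 FPKM) by 2.72-fold. The means of Tmsb4x (thymosin β4, which binds actin monomers), Fxyd2 (a regulator of the sodium pump) and Aldoa (a glycolytic enzyme) were 4969, 4833 and 4814 FPKM, so that Sncg exceeded them by 2.84-, 2.92- and 2.93-fold.

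In male DRG libraries Sncg was at 12359.8, 10778 and 26552 FPKM. In female DRG libraries it was at 12620.4, 11691 and 12489 FPKM. These values lay close together except for male DRG replicate 3, which was far above every other DRG library. In male TG libraries the gene was at 14685 and 15160.5 FPKM, and in female TG libraries at 11102 and 13571 FPKM. The ganglia overlapped, and only male DRG replicate 3 among DRG libraries was above female TG replicate 2 or either male TG library. Sncg ranked first in 9 of 10 libraries and second in male DRG replicate 1, below the mitochondrial leucine tRNA gene mt-Tl1 at 25664 FPKM. The mean of mt-Tl1 over the 10 libraries was 2566 FPKM, nearly all of it from that library. Elsewhere the level of Sncg was 1.58- to 2.83-fold that of the next gene in the same library. Sncg took 2.23% ± 0.414 of the summed FPKM in the 6 DRG libraries and 2.29% ± 0.235 in the 4 TG libraries (mean ± SD), with a lowest value of 1.95% in female TG replicate 1 and a highest of 3.05% in male DRG replicate 3.

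**Figure D1:**
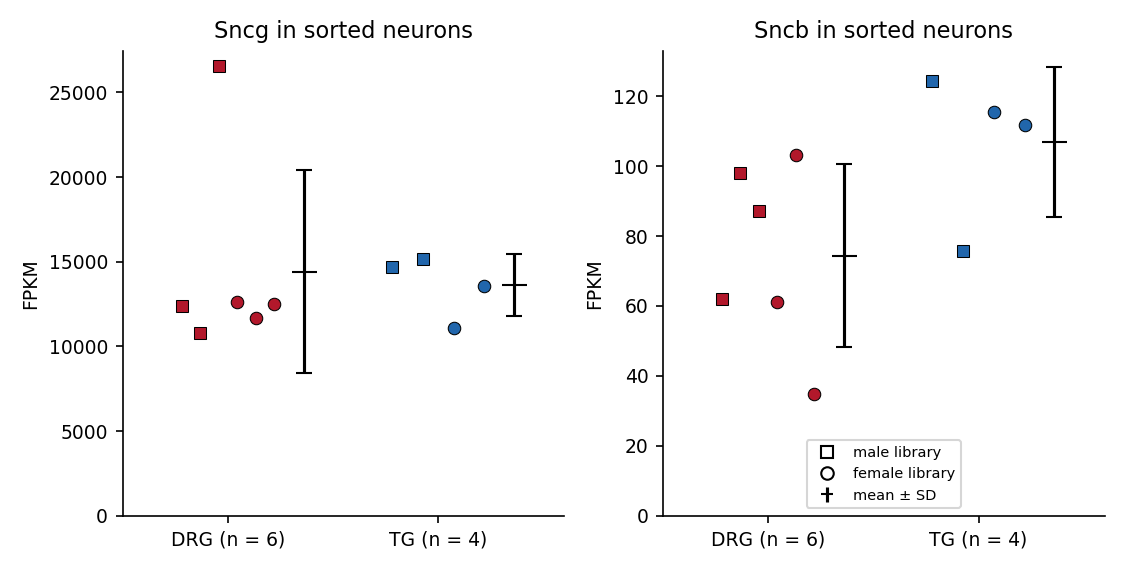
FPKM of Sncg (left) and Sncb (right) in each library of sorted DRG (red, n = 6) and TG neurons (blue, n = 4), with squares for male and circles for female libraries and the mean ± SD beside them. Sncg lies between 10778 and 15160.5 FPKM except in male DRG replicate 3 (26552 FPKM), and Sncb reaches its lowest value, 34.9 FPKM, in a female DRG library.

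Sncb was expressed far below Sncg, but above most genes. It averaged 87.4 FPKM over the 10 libraries, rank 1260 of all genes and higher than 90.0% of the 12637 detected genes. In male DRG libraries it was at 62.1, 98.0 and 87.2 FPKM, and in female DRG libraries at 61.2, 103 and 34.9 FPKM. The lowest and highest DRG values were thus both from female mice. In male TG libraries Sncb was at 124 and 75.6 FPKM, and in female TG libraries at 116 and 112 FPKM. TG libraries lay above every DRG library with 1 exception, as male TG replicate 2 lay among the DRG libraries. Its rank among all genes ran between 909 in male TG replicate 1 and 2447 in female DRG replicate 3.

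**Figure D2:**
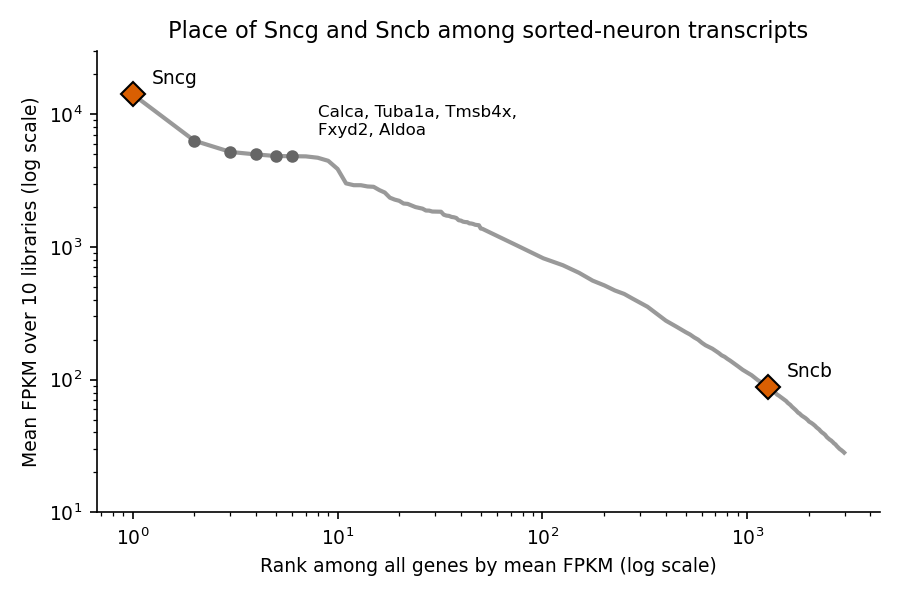
Mean FPKM over 10 libraries (log scale) against the rank of each gene (log scale), with the synucleins as orange diamonds and the 5 next most abundant genes as grey points. Sncg, at 14101 FPKM, is 2.24-fold above the second gene, Calca, whereas Sncb, at 87.4 FPKM, sits on the slope at rank 1260.

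Within a library, Sncg exceeded Sncb by 96.0- to 357-fold in FPKM. The ratio was 199, 110 and 305 in male DRG libraries and 206, 113 and 357 in female DRG libraries. It was 118 and 201 in male TG libraries and 96.0 and 121 in female TG libraries. The ratio averaged 215 ± 99.98 over the 6 DRG libraries and 134 ± 45.8 over the 4 TG libraries (SD), and the ganglia overlapped. The 2 highest ratios arose in different ways, since male DRG replicate 3 had the highest Sncg level and female DRG replicate 3 the lowest Sncb level. Across the 10 libraries no relation between the members was seen on the log2(FPKM + 1) scale (Pearson's r = 0.042, permutation p = 0.963, and Spearman's rho = -0.079, permutation p = 0.839, n = 10). Without male DRG replicate 3 and male TG replicate 2, the libraries farthest from the median Sncg level, r was 0.038 (exact permutation p = 0.965, n = 8). Among the DRG libraries alone r was 0.13 and rho was -0.54 (exact permutation p = 0.983 and 0.297, n = 6). All these permutations exchanged libraries freely, without regard to ganglion, sex or the pairs numbered in the descriptions. Their p-values take the libraries as independent.

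**Figure D3:**
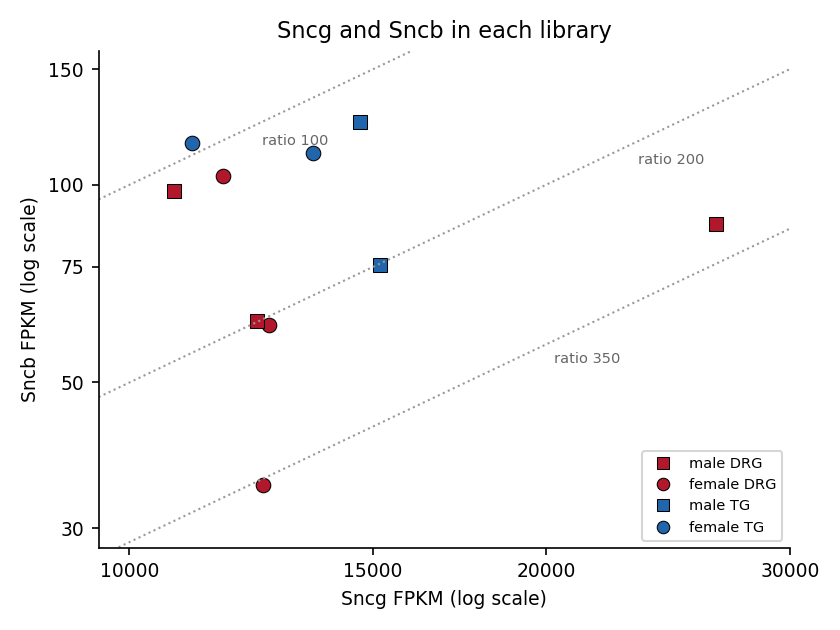
Sncb against Sncg FPKM in each library (both axes logarithmic), red for DRG and blue for TG, squares for male and circles for female libraries, with dotted lines at constant Sncg over Sncb ratios. The points spread without a common trend, and the ratio runs between 96.0 in a female TG library and 357 in a female DRG library.

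The difference between DRG and TG neurons is given as a description, since both genes were chosen from these columns. Sncg averaged 14415 ± 5985 FPKM in DRG neurons (SD, n = 6) and 13629.6 ± 1812 FPKM in TG neurons (SD, n = 4). Without male DRG replicate 3 the DRG mean was 11987 ± 765 FPKM (n = 5), below the TG mean. The log2 difference of DRG over TG was 0.014 (SE 0.26, 95% interval -0.55 to 0.58), with sex as a term. Its sign was not stable. It was -0.17 without male DRG replicate 3, -0.038 without female TG replicate 1, -0.25 without the 3 DRG libraries that stood apart, -0.050 with every library rescaled to an equal sum and -0.18 with array weights. Sncb averaged 74.4 ± 26.2 FPKM in DRG neurons (SD, n = 6) and 107 ± 21.5 FPKM in TG neurons (SD, n = 4), a log2 difference of -0.58 (SE 0.30, 95% interval -1.24 to 0.082). It stayed negative when each library was left out in turn (-0.79 to -0.37). Without the 3 DRG libraries that stood apart it was smaller, at -0.24. For 0 of the 2 synucleins were the DRG and TG libraries free of overlap, which held for 1.95% of detected genes. By limma, 0.111% of detected genes (14) passed an adjusted p of 0.05 between the ganglia, and no test is given for the synucleins.

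Sncb levels ran in parallel with those of Apoe, an apolipoprotein made in large amounts by satellite glia. Apoe was at 2242, 2821 and 2689 FPKM in male DRG libraries and at 1263, 3954 and 520.2 FPKM in female DRG libraries. In TG libraries it was at 4559.9 and 3222 FPKM in males and at 4477 and 3396 FPKM in females. The library with the lowest Apoe, female DRG replicate 3, also had the lowest Sncb, and the highest values of both genes were in male TG replicate 1. Over the 10 libraries the log2 values of Sncb and Apoe had r = 0.95, and r was 0.96 over the 6 DRG libraries and 0.86 without female DRG replicate 3. This pair was noticed after the values were seen, and its points share library depth and composition. The other satellite glia markers that were compared did not show it, and those with a mean under 10 FPKM were not compared. Of 6 markers of this list with a mean of at least 10 FPKM, 1 (Apoe itself) had r above 0.5 with Sncb. Of all genes compared 17.9% did. The median r of these 6 was -0.17, and Fabp7, a fatty acid binding protein of these glia, had r = -0.14. Nor was a high r particular to Apoe. Of 5396 genes compared, 52 had r above 0.9 with Sncb. The highest r among the listed synaptic vesicle and SNARE proteins was 0.952, against 0.945 for Apoe. Of 11 sensory neuron markers 3 had r above 0.5. All 10 satellite glia markers were detected, and their summed level was 1503 to 4806 FPKM (DRG libraries) and 4158 to 5455 FPKM (TG libraries), with none at 0 in any library. The part of glial RNA in the Sncb values of the sorted libraries was not tested.

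Sncg moved instead with the features of male DRG replicate 3. In that library Avil was at 172 FPKM and Snap25, a SNARE protein, at 756 FPKM, both the lowest of the 10 libraries, while Calca at 16276 FPKM and Fabp7 at 1685 FPKM were the highest. Sncg had r = -0.84 with Avil, 0.59 with Calca, -0.82 with Snap25 and 0.82 with Fabp7 over the 10 libraries. Without male DRG replicate 3 these were -0.014, -0.091, -0.20 and 0.32. None of the links of Sncg to these markers was thus visible in the other 9 libraries at the same strength. Avil, Calca and Fabp7 had the opposite sign to the medians of their own lists. Over the 10 libraries the median r with Sncg was 0.69 for 11 sensory neuron markers (6 above 0.5, 3 below -0.5). It was -0.79 for 9 nociceptor markers (2 above 0.5, 5 below -0.5) and -0.15 for 6 satellite glia markers (2 above, 2 below). Of all genes compared 28.5% were above 0.5. The share of all genes below -0.5 was not computed, but their 5th percentile of r was -0.89. The counts below -0.5 are therefore not read as particular to these lists. In male DRG replicate 3 the nociceptor list had its lowest median level, 26.2 FPKM, but its highest summed level, 17636 FPKM, most of it from Calca. The list of large-diameter neuron markers had its highest median level there, 112 FPKM. The coefficient of variation of Sncg in DRG was 0.415, near the median of detected genes (0.426). Without male DRG replicate 3, left out because its Sncg value stood apart, it was 0.0638, against a median of 0.334 over the same 5 libraries. Both medians cover genes of all levels. As 0 other genes lay within 2-fold of the level of Sncg, it could not be set against genes of its own level. Sncb varied among DRG libraries with a coefficient of variation of 0.352, and of 0.396 without male DRG replicate 3. Of 1516 genes with a mean within 2-fold of its own, 57.0% had a lower value over the 6 DRG libraries and 89.7% over these 5.

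Sex was compared across both ganglia, with ganglion as a term in limma over all detected genes. Of the 2 synucleins 0 passed the test at an adjusted p of 0.05, and of all detected genes 0.0237% did (3 genes, with 518 at an unadjusted p under 0.05). Sncg averaged 15907 ± 6210.1 FPKM in male libraries (SD, n = 5) and 12295 ± 943 FPKM in female libraries (SD, n = 5). The log2 difference of male over female was 0.30 (SE 0.25, 95% interval -0.25 to 0.85, adjusted p = 0.816 by limma). An exact permutation of sex within each ganglion, two-sided over 120 splits, gave p = 0.217, where the smallest possible p is 0.0167. It treats the libraries as independent, although the numbers in the descriptions pair 4 DRG libraries with 4 TG libraries of the same sex. In the fit over these 8 with the pair as a block the log2 difference was 0.38 (adjusted p = 0.912 by limma). Without male DRG replicate 3 the log2 difference was 0.081. Within TG both male libraries lay above both female libraries for Sncg (14685 and 15160.5 against 11102 and 13571 FPKM), which was the case for 1 of the 2 synucleins. With 2 libraries against 2 this carries little, since male and female TG libraries did not overlap for 37.1% of detected genes. Within DRG the sexes overlapped for both synucleins, as against 6.21% of detected genes without overlap. Over both ganglia together male and female libraries were apart for 0 of the 2 synucleins and for 0.791% of detected genes.

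Sncb averaged 89.5 ± 23.7 FPKM in male libraries and 85.3 ± 35.5 FPKM in female libraries (SD, n = 5 each). The log2 difference was 0.16 (SE 0.30, 95% interval -0.49 to 0.80, adjusted p = 0.897 by limma), and the exact permutation p was 0.8. The intervals of both genes include male over female changes of about the size of the spread between libraries, so that such a difference was not detectable here. The sex difference in DRG minus that in TG was 0.032 for Sncg (SE 0.57, 95% interval -1.22 to 1.28) and 0.64 for Sncb (SE 0.61, 95% interval -0.71 to 1.99), with an adjusted p of 0.9999 for both by limma. Of all detected genes 0% (0 of 12637) passed this test, and 148 had an unadjusted p under 0.05.

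The genes whose pattern over the 10 libraries was most like that of each synuclein were taken by Pearson's r of log2(FPKM + 1) among 5396 detected genes with a mean of at least 10 FPKM. For Sncg they were Mzt2 (r = 0.97), a component of microtubule-nucleating complexes, Fis1 (r = 0.97), a protein of the outer mitochondrial membrane, Ndufb10 (r = 0.97), a subunit of respiratory complex I, 1810058I24Rik (r = 0.97) and Gm3934 (r = 0.96). Their levels were lower than that of Sncg, with means of 17.4 FPKM for Gm3934 to 630 FPKM for Ndufb10. All 5 reached their highest level in the same library as Sncg, and without male DRG replicate 3 their r with Sncg fell to 0.80 to 0.85. For Sncb the closest were Sf3b4 (r = 0.98), a splicing factor subunit, Arpc2 (r = 0.98), a subunit of the actin-nucleating Arp2/3 complex, Pcbp4 (r = 0.97), an RNA-binding protein, Gltscr2 (r = 0.97), a nucleolar protein, and Prkcsh (r = 0.97), a subunit of glucosidase II. Their means were 21.0 FPKM for Sf3b4 to 112 FPKM for Arpc2, and without male DRG replicate 3 their r with Sncb was 0.97 to 0.98. The links of Sncg to its closest genes were thus weaker without male DRG replicate 3. For Sncb this omission is no like test, since its level in that library, 87.2 FPKM, was near its mean of 87.4 FPKM. The lowest Sncb level, 34.9 FPKM, was in female DRG replicate 3. For the closest genes of Sncb, r without female DRG replicate 3 was not computed, so the members are not compared in this respect. Among all 5396 genes the 95th percentile of r was 0.85 for Sncg and 0.78 for Sncb. All these values are descriptions over libraries that share depth and composition between genes.

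**Figure D4:**
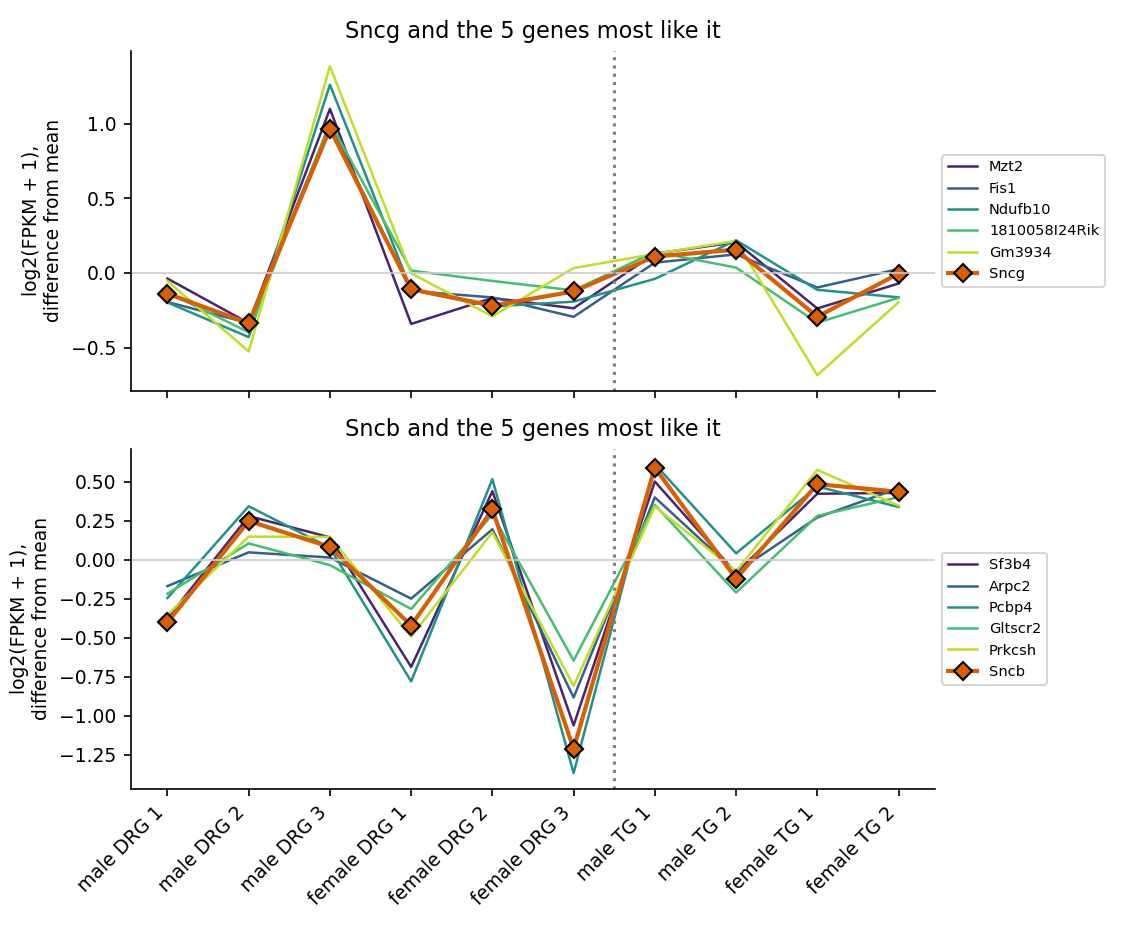
Difference of log2(FPKM + 1) from each gene's own mean in the 10 libraries, for Sncg (top) and Sncb (bottom) in orange and the 5 genes most like each in other colours, with a dotted line between DRG (left) and TG (right). The Sncg group shares the peak in male DRG replicate 3, and the Sncb group shares the low value in female DRG replicate 3.

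The synaptic partners of the family were detected in the sorted neurons, although the lowest value of a listed gene in a single library was 0 FPKM. All 15 listed synaptic vesicle and SNARE proteins were detected, and their median level per library was 40.0 to 78.1 FPKM (DRG) and 57.5 to 66.1 FPKM (TG). Snap25, which drives vesicle fusion with its SNARE partners, averaged 1187 ± 240.2 FPKM in the DRG libraries and 1192 ± 111 FPKM in the TG libraries (SD, n = 6 and 4). Rab3a, a small GTPase of synaptic vesicles, averaged 506 ± 133 FPKM in DRG and 603 ± 83.5 FPKM in TG. Cplx1, a complexin that clamps SNARE complexes, averaged 417 ± 116 FPKM in DRG and 601 ± 97.8 FPKM in TG. Sncg alone was therefore above the summed FPKM of the 15 genes, which was 2234 to 3127 for DRG and 2824 to 3469 for TG libraries. By limma 0 of the 15 passed the test between ganglia in either direction (10 with the lower and 5 with the higher fitted mean in DRG, median log2 difference -0.18 against -0.049 over all genes), and 0 passed between the sexes. With 0.111% and 0.0237% of all detected genes called, these counts say nothing particular of the list. For Sncb 6 of 14 of them compared had r above 0.5, against 17.9% of all genes, and without male DRG replicate 3 there were again 6 of 14, against 26.5%. For Sncg 0 of 14 had r above 0.5, where 28.5% of all genes were above 0.5 (0 of 14 and 7.89% without male DRG replicate 3). Below -0.5 were 5 of 14. The share of all genes below -0.5 was not computed, so that count is not read as particular to the list.

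Of 15 listed gene names of kinases and chaperones, chosen as proteins that act on synucleins or accompany them, 14 were in the table and 14 were detected. Hspa8, the constitutive Hsc70 chaperone, averaged 2636 ± 688 FPKM in DRG and 3131 ± 126 FPKM in TG (SD, n = 6 and 4). Hsp90ab1, an HSP90 chaperone, averaged 1867 ± 228 FPKM in DRG and 1889 ± 169.9 FPKM in TG. Park7 (DJ-1), which protects against oxidative damage, was at 808 ± 317 FPKM in DRG and 699.9 ± 83.1 FPKM in TG. Ywhaz, a 14-3-3 protein, was at 345 ± 97.5 FPKM in DRG and 341 ± 23.7 FPKM in TG. In limma 0 of the 14 passed in any of the comparisons between ganglia, sexes or their interaction, against 0.111%, 0.0237% and 0% of all detected genes. By fitted mean 8 were higher and 6 lower in DRG, where 44.3% of all detected genes were higher.

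An earlier data set of the same group, of which the authors' mean FPKM were deposited, set DRG neurons purified by magnetic sorting against mixed dissociated DRG cells. Here the synucleins went in different directions. Sncg had a mean of 2586 FPKM in purified neurons and 1487 FPKM in mixed cells, a ratio of 1.74. It ranked 2 and 6 of 39008 genes, and 91.7% of the 13554 genes at 1 FPKM or more had a lower ratio. Sncb had a mean of 48.0 FPKM in purified neurons and 64.9 FPKM in mixed cells, a ratio of 0.740, and 23.7% of these genes had a lower ratio. Over the same genes the median ratio was 0.991. These are means with no replicate error, so neither ratio was tested.

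Marker lists place the 2 ratios. Of 9 markers of small-diameter nociceptors 7 were higher in purified neurons, with a median ratio of 1.66, such as Tac1 (substance P, 1.56) and Mrgprd (a receptor of non-peptidergic nociceptors, 1.94), while Calca stood at 0.917. Of 10 markers of large-diameter neurons 0 were higher, with a median ratio of 0.206, such as Nefl at 0.455 and Nefh at 0.122, subunits of neurofilaments. Sncg was thus close to the median of the nociceptor list, and Sncb lay between the medians of the 2 lists. Sensory neuron markers had a median ratio of 1.22, and the synaptic list had a median of 0.775 with 5 of 15 above 1. Glial markers were lower in purified neurons throughout, with medians of 0.0265 for 10 satellite glia markers and 0.0850 for 10 Schwann cell and myelin markers. Apoe, the gene that followed Sncb in the sorted libraries, had a ratio of 0.0109. The satellite glia markers ran between 0.0058 and 0.795, the nociceptor markers between 0.572 and 4.51 and the sensory neuron markers between 0.139 and 1.74. Each of these ranges includes the 0.740 of Sncb.

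**Figure D5:**
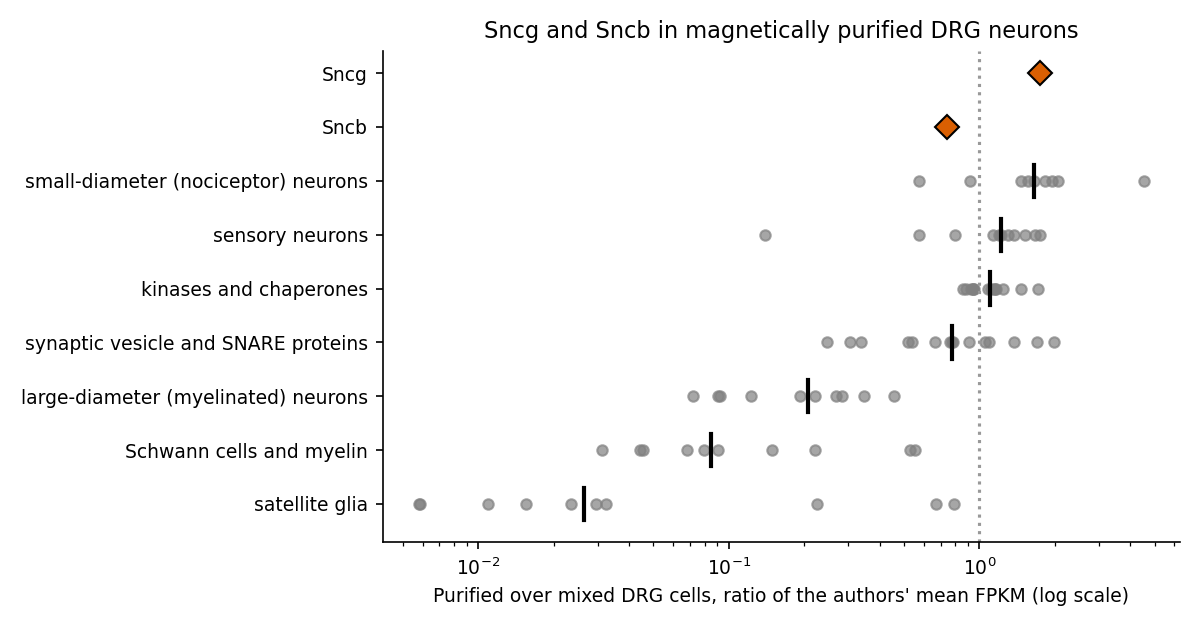
Ratio of the authors' mean FPKM in purified over mixed DRG cells (log scale) for Sncg and Sncb (orange diamonds) and for the members of 7 marker and partner lists (grey points, with the list median as a black bar). Sncg, at 1.74, lies near the nociceptor median of 1.66, Sncb, at 0.740, near the synaptic median of 0.775, and all satellite glia markers lie below 1.

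FACS-sorted and magnetically purified DRG neurons were processed and normalised separately, so their levels are given side by side only. Sncg was at 14415 FPKM in FACS-sorted DRG neurons and 2586 FPKM in magnetically purified ones, a ratio of 5.57, and Sncb was at 74.4 and 48.0 FPKM, a ratio of 1.55. Among 10881 genes the median of this ratio was 0.869, with 95.1% of genes below Sncg and 68.6% below Sncb. The order of the 2 genes was the same in both kinds of preparation, with Sncg at rank 1 of the sorted and rank 2 of the purified neurons.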

How the data were processed

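RNA from FACS-sorted GFP+ neurons of 6 DRG and 4 TG was amplified, sequenced and, by the authors, aligned to mm10 with STAR (uniquely mapped reads only) and converted to FPKM with cufflinks. The deposited FPKM of 45952 genes in 10 libraries were used as given. The authors' mean signal per gene, counts divided by DESeq2 size factors, and their mean FPKM of an earlier magnetic-sorting study were read as pooled values without error. In that last table the positions did not match the genes of their lines and were not used. Columns of fold changes and p-values were not used, nor were 22 per-sample columns (12 of the other study, 10 repeated).

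Genes at 1 FPKM or more in at least 2 libraries of DRG or of TG (12637) were fitted as log2(FPKM + 1) in limma 3.58.1 (R 4.3.3, lmFit and eBayes with trend), the terms being ganglion and sex. Adjustment was by Benjamini and Hochberg over all of them, at 0.05. Fold changes are on that log2 scale. The steps were tested on simulated data. Positions and sequences are from GENCODE M21 on GRCm38.

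Members and lists were chosen with earlier results of these data known. Genes named are the synucleins, the next 5 by mean FPKM, the 5 most correlated with each, their neighbours, and up to 4 members of each list with the highest mean FPKM. Apoe and Fabp7 were also picked out for their values. Of the genes this rule names, 1 is not reported here.

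GEO's descriptions number 4 DRG and 4 TG libraries. These numbers served as pairs, since deviations from the group means correlated in 4 of 4 pairs (0.12 to 0.41, limit 0.1, 3 of 4 closest to their own number). Title numbers did not pair. No source used here says whether the pairs are single mice. Alternatives were pseudocounts, filters, rescalings, no trend, array weights, terms left out, replicate blocks and leaving out libraries. The set without 3 DRG libraries and the 8 numbered libraries without a block were added after seeing the data.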

Additional observations from a re-analysis of the deposited data

Results flagged for a closer look

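Within the groups of DRG (n = 6), TG (n = 4), male and female libraries (n = 5 each), 6 of 24 sets of values examined had an end library far from the rest by Dixon's criterion, which chance meets in about 1 in 20 groups. The values of 1 gene share libraries and are not independent. Sncg in male DRG replicate 3, at 26552 FPKM, stood apart among the DRG libraries and again among the male libraries. It did so after median-ratio rescaling in both groups (31939 rescaled FPKM) and as a share of the summed FPKM among DRG libraries (3.05%). Sncb in male TG replicate 2 stood apart from the other 3 TG libraries as a share of the summed FPKM (0.0117%), but not in FPKM.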

How the results depend on the processing

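No synuclein passed the test for sex (adjusted p 0.604 to 1) or for the interaction (0.944 to 1) by limma under any alternative run. Rescaling each library to an equal sum moved the median male over female log2 difference of all genes to -0.18 (against -0.045), and the Sncb difference to -0.010. That of Sncb was also negative without female DRG replicate 3 (-0.089) and without the 3 DRG libraries that stood apart (-0.30). Leaving out single libraries gave 0.081 to 0.44 for the sex difference of Sncg, -0.089 to 0.33 for that of Sncb, -0.37 to 0.28 for the interaction of Sncg and 0.25 to 1.02 for that of Sncb. The interaction of Sncg was -0.034 after that rescaling, -0.27 with array weights, -0.0023 without female DRG replicate 2, -0.11 without female TG replicate 2, -0.37 without male DRG replicate 3 and -0.30 without the 3 libraries, where that of Sncb was -0.17. Quantile normalization set Sncg, the top gene, to a single value by construction.

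As parts of 1000000, mean Sncg was 22319 in DRG and 22912 in TG, and mean Sncb was 120.3 and 182. Genes called between DRG and TG numbered 14, but 118 with array weights, 31 without the 3 libraries, and 11 to 25 with single libraries left out (25 without male DRG replicate 3). Between the sexes they numbered 3, but 5 with array weights and 7 without the 3 libraries, and 2 to 4 with single libraries left out. For the interaction they numbered 0, but 3 without a filter, 1 with array weights, 8 without the 3 libraries and 0 to 5 with single libraries left out. The cause of these changes was not tested.

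With the replicate block by description numbers (8 libraries), the DRG over TG difference was 0.079 for Sncg and -0.49 for Sncb, as without the block over the same libraries, and the block called 2 genes for the interaction, against 1 without it. The block changed no call of a synuclein. With the block by title numbers, which did not pair the libraries, the differences were -0.19 and -0.41. Read depth per library was not used, so the spread between libraries sets the precision.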
